A study of Canis lupus familiaris with 18 samples.

Results

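The genes described here are MET, EGFR, ERBB2, KIT, AXL, PDGFRA, PDGFRB, FGFR1 and FGFR2, which are receptor tyrosine kinases that kinase inhibitors and antibodies have been made against, together with HGF, the ligand of MET. They were chosen by name, and every probe set that the platform annotation gave to exactly 1 of these 10 symbols was used. This gave 16 probe sets of the 42924 on the array that are not controls. The samples were 18 canine primary osteosarcomas, malignant bone tumours whose cells lay down bone matrix, snap frozen when the dogs had surgery, a biopsy or a necropsy. Of these, 9 came from dogs with increased serum alkaline phosphatase (ALP), a blood enzyme released largely from bone and liver, and 9 from dogs with normal serum ALP. No normal tissue and no treated group was part of the study, and the dogs' age, sex and breed were not analysed here. Each tumour was hybridised to 1 Affymetrix canine expression array.

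A receptor tyrosine kinase spans the cell membrane. Binding of its ligand outside the cell brings receptor molecules together, the kinase domains inside phosphorylate each other, and adaptor proteins then pass the signal to the RAS-MAP kinase and PI3-kinase pathways. Such receptors drive growth, survival and movement of cells, and in bone they act both in bone-forming cells and in the stroma and vessels around them. The array measures the mRNA of a receptor and not its protein or its phosphorylation.

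Levels are given as log2(signal + 16), computed from the deposited log2 signals, and differences are increased minus normal ALP on that scale, where the change of a dim probe set comes out too small. Fold ranges between tumours are on the deposited scale. Levels of different probe sets are not compared, since each has its own probes. A probe set was called dim, and was not tested, if its mean over the 18 arrays was under the 40th percentile (6.15). Of the 16 probe sets of these genes, 14 passed, and each gene had at least 1 that did. MET lay just inside the limit, with a mean of 6.18, and the AXL probe set CfaAffx.8493.1.S1_s_at just outside, with a mean of 6.09. The other dim probe set was Cfa.3903.1.S1_s_at of EGFR. Values of these dim probe sets come from the same fit without the filter. Each gene is described by its probe set of highest mean, and a name ending in _s_at marks a probe set that can share probes with other transcripts.

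The tumours looked alike in overall signal. The median deposited log2 value of an array was between 6.25 and 6.31 with increased ALP and between 6.27 and 6.30 with normal ALP, and the lowest rank correlation between 2 arrays was 0.929. The mean level of the 10 measured osteoblast markers, of 12 listed, lay between 9.11 and 12.12 with increased ALP and between 9.28 and 11.71 with normal ALP. The signal difference between the 3' and the middle actin control probe sets, a measure of how complete the RNA was, had a median of 1.76 with increased ALP and 1.40 with normal ALP. Increased ALP replicates 3 and 6 stood apart in the BioB spike-in control, whose log2 signal reached 10.48, against at most 9.29 in the normal ALP arrays.

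None of the 16 probe sets passed the test between the serum ALP groups, and the widest contrasts lay between single tumours. In limma, 0 of the 14 tested probe sets had an adjusted p under 0.05, as had 0.0% of all 25754 probe sets tested. At an unadjusted p under 0.05, 1 of the 14 was lower with increased ALP and none was higher, against 4.22% and 1.92% of all probe sets tested, or 6.14% in both directions together. The ranges of the 2 groups overlapped at every one of the 16 probe sets, and groups without overlap made up 0.0% of all probe sets. With 9 arrays in each group the precision was limited by the spread between tumours.

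**Figure D1:**
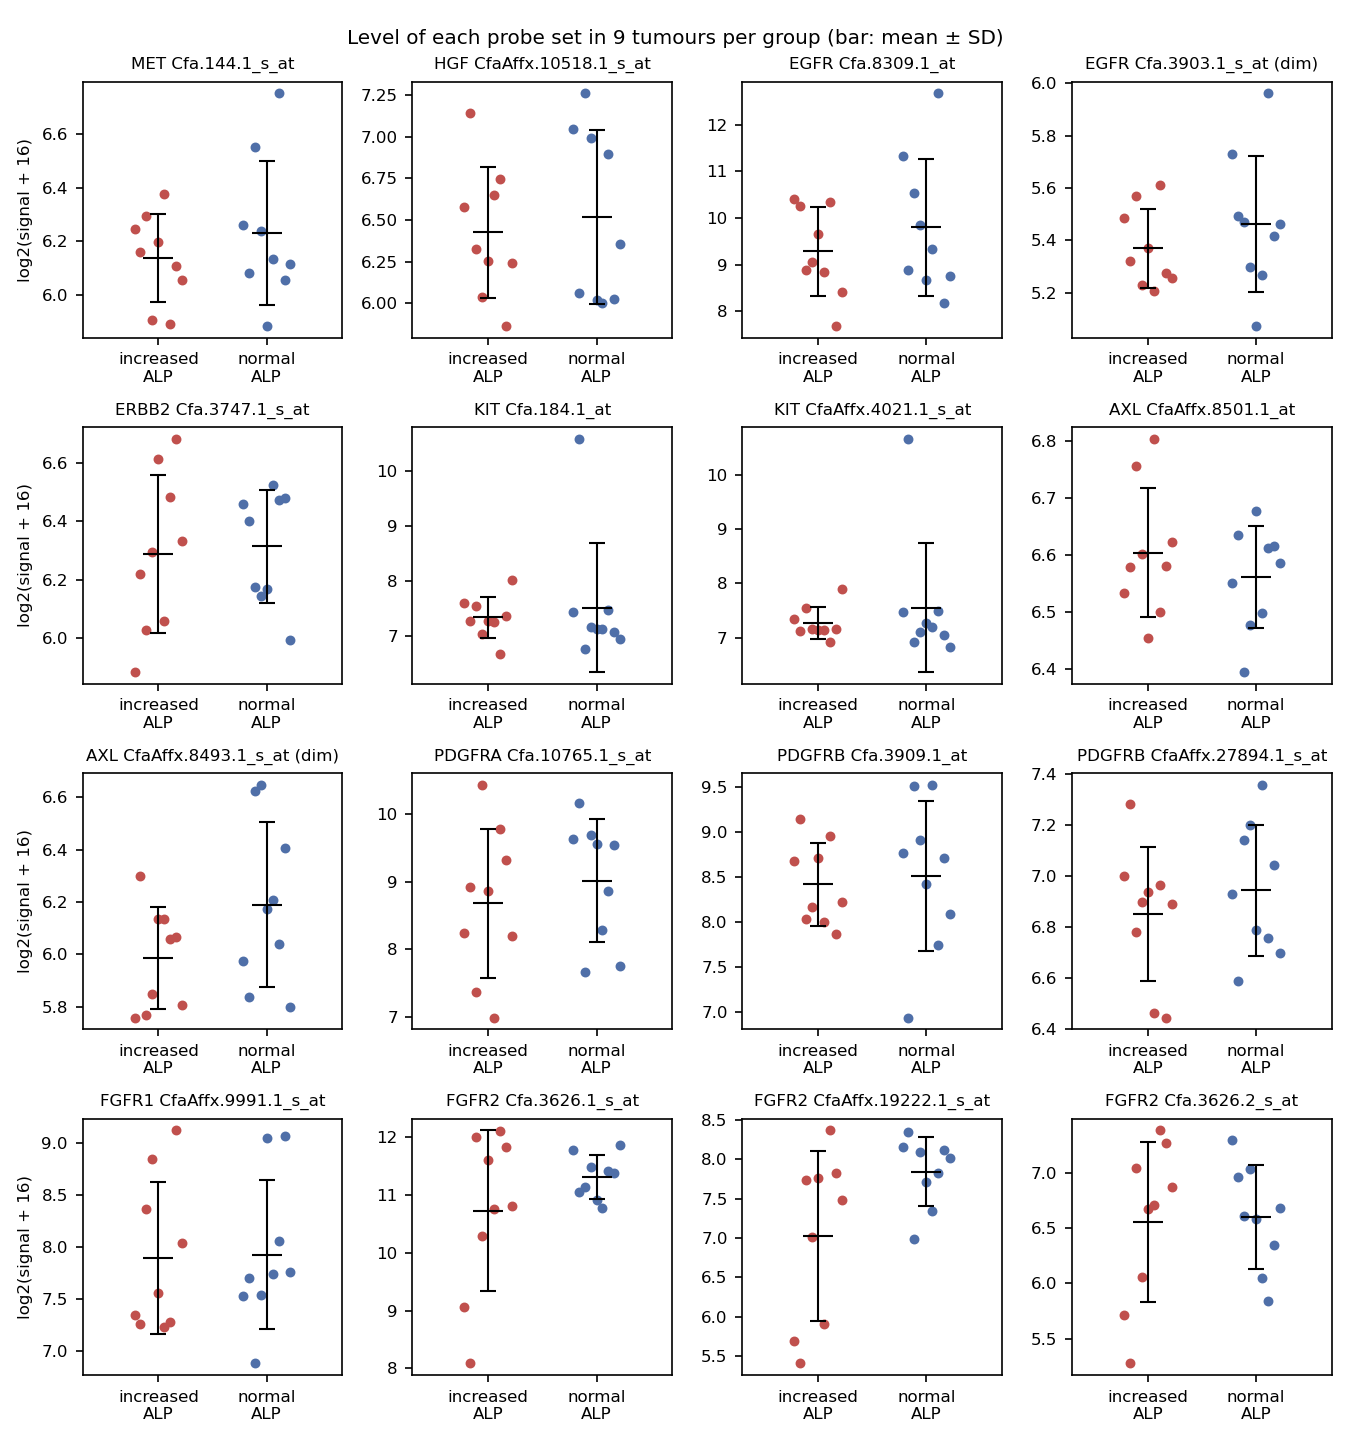
Level of each of the 16 probe sets in every tumour, as log2(signal + 16) on a scale of its own per panel, with increased ALP left of normal ALP, points for tumours and bars for the mean ± SD (n = 9 each). KIT has 1 tumour far above the others, at 10.59 in normal ALP replicate 2, EGFR reaches 12.68 in normal ALP replicate 7, and FGFR2 reaches down to 8.09 and 9.05 in increased ALP replicates 2 and 1.

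KIT, the receptor of stem cell factor, is best known in mast cells, melanocytes and blood-forming cells, and in the dog as a driver of mast cell tumours. Its level at Cfa.184.1.S1_at was lowest at 6.67, with a median of 7.27 and a highest of 8.01, in the increased ALP tumours, and lowest at 6.75, with a median of 7.13 and a highest of 10.59, in the normal ALP tumours. All but 1 of the 18 tumours thus lay between 6.67 and 8.01, and normal ALP replicate 2 lay alone above them. On the deposited scale its signal was 9.48-fold that of the next normal ALP tumour. The second KIT probe set, CfaAffx.4021.1.S1_s_at, gave the same picture, with 10.67 in that tumour and a signal 9.86-fold the next of its group. Across all 18 tumours the KIT probe sets correlated with r = 0.987 and rho = 0.83, and r was 0.85 without the 2 tumours farthest from the median.

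The mean level of KIT was 7.33 ± 0.38 with increased ALP and 7.51 ± 1.17 with normal ALP (SD, n = 9 each), so the groups were apart by -0.18 ± 0.38 (SE; limma 95% interval -0.98 to 0.62, adjusted p = 0.951). Without normal ALP replicate 2 the difference was 0.20, with an adjusted p of 0.873, so this tumour decided its sign. At the second probe set the difference was -0.29 ± 0.38 (SE), and 0.10 without that tumour. Neither value passed the test. Dixon's test for a tumour far from its group flagged KIT, at each probe set, on the high side of the normal ALP group, and no other of the 16 probe sets. Over all probe sets tested, a far high tumour was found in 5.85% for the increased ALP group and 6.48% for the normal ALP group, a far low one in 2.38% for the increased ALP group and 3.48% for the normal ALP group, and any of these in 17.1%.

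The genes that lie next to KIT were also high in normal ALP replicate 2, which was looked at after the KIT values were seen. Of the 16 measured genes within 10 places of KIT on either side, in the gene order of the RefSeq table, 7 had their highest level of all 18 tumours there, and within 20 places 13 of 29 did. In that tumour 9.35% of all 15115 named genes had their highest level. SRD5A3, a steroid reductase needed for protein glycosylation, was 3.20 above the median of the other 17 tumours, and TMEM165, a Golgi membrane protein, was 2.48 above it. FIP1L1, an mRNA 3' end processing factor, was 2.28 above, CHIC2 was 2.27 above and SCFD2 was 1.81 above. CLOCK, the circadian transcription factor, was 1.77 above and USP46, a deubiquitinase, was 1.30 above, each at a dim probe set. KIT itself was 3.34 above the median of the others, and only 28 of 25754 probe sets were raised by more in that tumour.

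The raised level did not reach every gene of that stretch. PDGFRA, which lies beside KIT, was 1.29 above the median of the others and was the second highest of the 18. KDR, the endothelial VEGF receptor on the other side of KIT, differed from the median of the others by -0.88, at rank 15. EXOC1, 9 places away, was at its lowest of all 18 tumours. DNA copy number was not measured.

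The mast cell enzymes were low in the tumour with high KIT. Of 8 mast cell markers listed, 4 were measured, namely CPA3, CMA1, MS4A2 and SRGN, and their mean level lay between 6.25 and 9.07 with increased ALP and between 6.11 and 9.62 with normal ALP. Normal ALP replicate 2 was the 10th highest of 18 in this score. CPA3, the mast cell carboxypeptidase, was at 5.07 there, its lowest level of all 18. There the chymase CMA1 was at 5.90 and the IgE receptor subunit MS4A2 at 5.93, near the low end of each, while SRGN, a granule proteoglycan that other blood cells also make, was at 10.38, near the high end. The score of 7 measured cell division genes, of 10 listed, was the highest of all tumours in normal ALP replicate 2, at 1.02 above the mean of all tumours. Its endothelial score was the 17th of 18.

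EGFR, the receptor of epidermal growth factor, varied most widely between tumours, with a 34.6-fold range of signal and a standard deviation at the 97.9th percentile of all probe sets tested. At Cfa.8309.1.A1_at the lowest level was 7.68, the median 9.06 and the highest 10.40 with increased ALP, and the lowest was 8.18, the median 9.34 and the highest 12.68 with normal ALP. Normal ALP replicate 7 was highest, followed by normal ALP replicate 1 at 11.33, and the increased ALP tumours lay within the range of the others apart from replicate 8, the lowest of all. The mean was 9.28 ± 0.95 with increased ALP and 9.80 ± 1.47 with normal ALP (SD, n = 9 each). Their difference was -0.52 ± 0.54 (SE; limma 95% interval -1.66 to 0.62, adjusted p = 0.900), and -0.16 without normal ALP replicate 7. The dim EGFR probe set Cfa.3903.1.S1_s_at also had its highest level, 5.96, in normal ALP replicate 7. It correlated with the bright one with r = 0.73 and rho = 0.60, but r was 0.38 without normal ALP replicates 1 and 7.

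In normal ALP replicate 7 the genes on 1 side of EGFR were high as well, again looked at after the EGFR values were seen. EGFR was 3.61 above the median of the other 17 tumours there, and 78 of 25754 probe sets were raised by more. Of 16 measured genes within 10 places, 6 had their highest level in that tumour, and within 20 places 7 of 30 did, against 7.2% of all named genes. VOPP1, a vesicle membrane protein gene that lies just past LANCL2, was 2.73 above the median of the others. BLVRA, biliverdin reductase, was 1.22 above, C18H7orf25 was 1.19 above, LANCL2 was 0.88 above, COA1 was 0.78 above and SEC61G, a subunit of the endoplasmic reticulum translocon, was 0.33 above. On the far side of SEC61G no measured gene within 10 places was at its highest there.

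That tumour also had the highest mast cell score of all, 2.34 above the mean, with CPA3 at 10.59 and CMA1 at 9.59. Its macrophage score (8 of 8 markers measured), endothelial score (8 of 8) and fat cell score (4 of 5) were the lowest of the 18. Its cartilage score (5 markers measured) was the 3rd highest, 1.71 above the mean, with CNMD, a cartilage matrix gene, at 13.24, its highest level of all. Of the epithelial markers, KRT18, a keratin and the 1 that passed the filter, was 2nd highest there at 7.15. EPCAM, an epithelial adhesion gene that was below the filter, was at 8.46, against at most 6.93 in the others. The other epithelial markers with values were also below the filter and showed little. CDH1 was at 5.01 there, against up to 5.33 in the others, and KRT8 at 4.65, against at most 4.60. The part of these cell markers in the EGFR level was not tested.

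**Figure D2:**
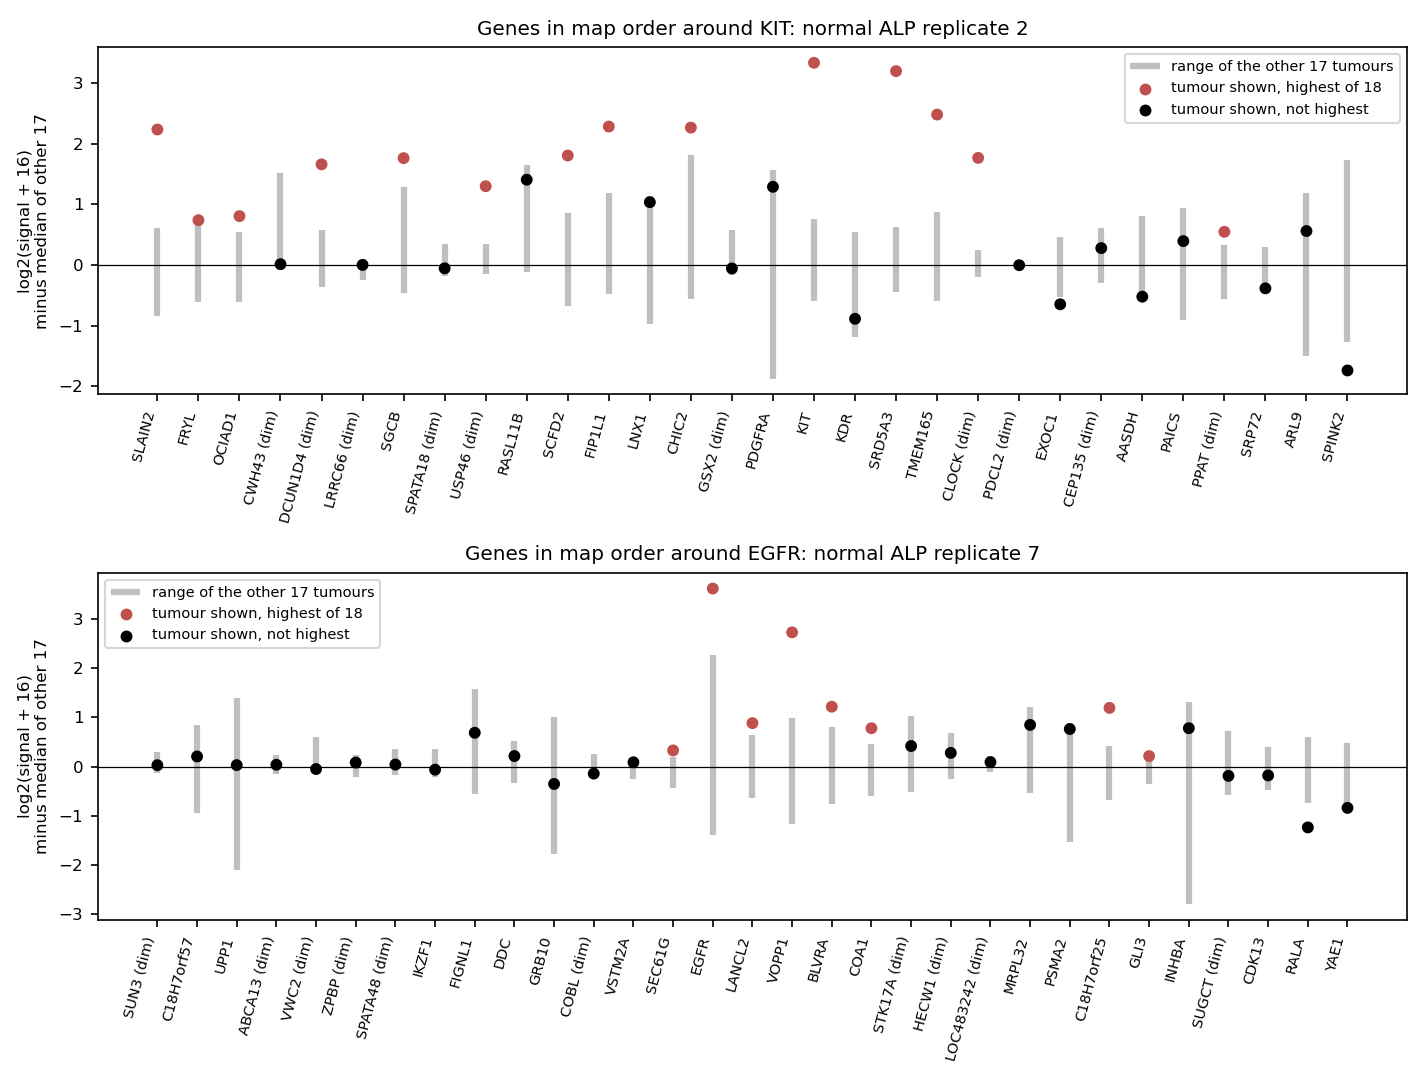
Level of the genes around KIT in normal ALP replicate 2 and around EGFR in normal ALP replicate 7, as the difference from the median of the other 17 tumours on the log2(signal + 16) scale, in map order up to 20 gene places to either side, with grey bars for the range of the other 17 and red points where the tumour was the highest of all. KIT stands at 3.34 with SRD5A3 at 3.20 and TMEM165 at 2.48 beside it while KDR lies at -0.88, and EGFR stands at 3.61 with VOPP1 at 2.73.

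ERBB2, the partner receptor of EGFR that has no ligand of its own, varied little. Its lowest level was 5.89, its median 6.30 and its highest 6.68 with increased ALP, against 6.0, 6.40 and 6.52 with normal ALP. No tumour stood apart, and the signal spanned 2.01-fold over all 18. The difference was -0.03 ± 0.11 (SE; limma 95% interval -0.25 to 0.20, adjusted p = 0.982), and it turned to 0.0094 with scaling to the 75th percentile.

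FGFR2, a receptor of fibroblast growth factors that acts in bone-forming cells, had a wider spread among the increased ALP tumours than among the normal ALP tumours at its brightest probe set, a difference that did not pass after adjustment. At Cfa.3626.1.A1_s_at the lowest level was 8.09, the median 10.80 and the highest 12.11 with increased ALP, a 17.2-fold range. It was 10.77, 11.38 and 11.86 with normal ALP, a 2.14-fold range. Increased ALP replicates 2 and 1 were the 2 lowest of all 18 tumours at each of the 3 FGFR2 probe sets, with 8.09 and 9.05 at the first of these. The mean absolute deviation from the group median was 1.04 with increased ALP and 0.295 with normal ALP. Its exact two-sided permutation p was 0.0139, which was 0.222 after adjustment over the 16 probe sets. This comparison of spread was added after the values were seen. At CfaAffx.19222.1.S1_s_at it was 0.851 with increased ALP and 0.317 with normal ALP (exact permutation p = 0.0782), and at Cfa.3626.2.A1_s_at it was 0.538 with increased ALP and 0.349 with normal ALP (exact permutation p = 0.322). Without increased ALP replicates 1 and 2 the deviation at the first probe set was 0.587 with increased ALP and 0.295 with normal ALP (exact permutation p = 0.103). Leaving out the lowest tumours of the wider group narrows its spread by construction. Without replicate 1 alone the increased ALP deviation was 0.952, and without replicate 2 alone 0.831, each with an unadjusted exact permutation p of 0.00485.

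The mean of that FGFR2 probe set was 10.72 ± 1.39 with increased ALP and 11.31 ± 0.37 with normal ALP (SD, n = 9 each). The difference was -0.59 ± 0.45 (SE; limma 95% interval -1.52 to 0.35, adjusted p = 0.866), and it was 0.03 without increased ALP replicates 1 and 2. At CfaAffx.19222.1.S1_s_at the mean was 7.02 ± 1.08 with increased ALP and 7.84 ± 0.44 with normal ALP (SD, n = 9 each), and 8 of 9 increased ALP tumours lay below the normal ALP mean. This difference of -0.82 ± 0.36 (SE, 95% interval -1.58 to -0.06) was the single one with an unadjusted p under 0.05. In limma its adjusted p was 0.776, and its exact two-sided permutation p was 0.0551, so it did not pass. The remaining FGFR2 probe set, Cfa.3626.2.A1_s_at, differed by -0.04 ± 0.27 (SE), with an adjusted p of 0.988. The 3 probe sets correlated with each other with r between 0.68 and 0.86, and between 0.35 and 0.62 without increased ALP replicates 1 and 2. The fat cell marker FABP4 was highest in these 2 tumours, at 14.24 in replicate 1 and 13.09 in replicate 2. The fat cell markers ADIPOQ and LPL were also highest in replicate 1, at 12.49 and 10.01, but not in replicate 2. There ADIPOQ was at 7.80, under 8.91 in normal ALP replicate 6, and LPL at 9.45, under 9.83 in normal ALP replicate 3. The osteoblast marker IBSP was at 9.003 in replicate 1 and 5.42 in replicate 2, but also at 5.82 in increased ALP replicate 7, the highest in FGFR2. Not every osteoblast marker was low in replicate 2, where COL1A1 was at 14.43, near the high end of its range. FGFR2 had no relation that passed with the fat cell score (r = -0.52, rho = -0.25) or the osteoblast score (r = 0.36, rho = 0.07). The part of these cells in the FGFR2 level was not tested.

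FGFR1, the other fibroblast growth factor receptor of the group, had its highest levels in single tumours of each group. Its lowest level was 7.22, its median 7.55 and its highest 9.12 with increased ALP, against 6.88, 7.74 and 9.06 with normal ALP. Increased ALP replicate 8 and normal ALP replicates 8 and 5 were the 3 highest, and normal ALP replicate 3 was the lowest, a range of 5.31-fold in signal. The difference of -0.03 ± 0.32 (SE; limma 95% interval -0.71 to 0.64) had adjusted p = 0.993, and it turned to 0.0011 with quantile normalization and 0.0082 with 75th percentile scaling. In increased ALP replicate 8 the 2 genes that follow FGFR1 were also highest of all 18 tumours, LETM2, a mitochondrial membrane protein gene, at 1.60 above the median of the others and NSD3, a histone methyltransferase, at 0.96 above. Altogether 3 of 18 neighbours within 10 places were highest there, against 5.13% of all named genes.

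MET and HGF form a receptor and ligand pair in which the ligand is usually made by stromal cells and acts on neighbouring cells. At MET the lowest level was 5.89, the median 6.16 and the highest 6.38 with increased ALP, and the lowest was 5.88, the median 6.13 and the highest 6.75 with normal ALP. MET thus stayed close to the limit for dim probe sets in every tumour, and normal ALP replicates 7 and 3, at 6.75 and 6.55, were the highest. The difference was -0.09 ± 0.10 (SE; limma 95% interval -0.31 to 0.12, adjusted p = 0.905), and its exact permutation p was 0.398. Around MET, 5 of 15 measured genes within 10 places were highest in normal ALP replicate 7, against 7.2% of all named genes. These included GPR85 at 2.58 above the median of the others, MDFIC at 2.37 above and TES at 1.24 above, while CAV1 and CAV2, which lie closest to MET on that side, differed from it by -0.61 and -0.62.

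HGF was read from its only probe set, an _s_at one with a mean of 6.47. Its lowest tumours, in both groups, lay under the limit of 6.15 for dim probe sets. No tumour stood far from its group in HGF. The lowest was 5.86, the median 6.33 and the highest 7.15 with increased ALP, against 6.0, 6.36 and 7.26 with normal ALP, a 3.26-fold range in all. The difference of -0.09 ± 0.21 (SE; limma 95% interval -0.52 to 0.34) had adjusted p = 0.956. HGF activation genes, meaning the proteases that cleave HGF into its active form and their inhibitors, gave no call, with 1 higher and 3 lower of 4 measured of 6 listed, and a median difference of -0.10 against 0.007 over all probe sets tested.

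PDGFRA and PDGFRB are the receptors of platelet-derived growth factors, which act on mesenchymal cells and on the cells that coat small vessels. PDGFRA was lowest at 6.99, with a median of 8.86 and a highest of 10.43, with increased ALP, and lowest at 7.67, with a median of 9.54 and a highest of 10.16, with normal ALP. Increased ALP replicate 4 was the highest of all and increased ALP replicates 6 and 3, the arrays with the highest BioB spike-in signal, were the 2 lowest, for a 12.2-fold range. The mean was 8.68 ± 1.10 with increased ALP and 9.02 ± 0.91 with normal ALP (SD, n = 9 each). The difference was -0.34 ± 0.45 (SE; limma 95% interval -1.27 to 0.60, adjusted p = 0.918).

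PDGFRA was lower on arrays with larger quality differences, over 18 arrays of the same platform. It correlated with the actin difference (r = -0.62, rho = -0.45), the GAPDH difference (r = -0.66, rho = -0.67) and the BioB spike-in signal (r = -0.64, rho = -0.59), given as descriptions. Other genes had relations of like size with 1 of these measures, namely AXL with BioB (r = 0.64, rho = 0.33), MET with the GAPDH difference (r = 0.43, rho = 0.65), KIT with the actin difference (r = 0.11, rho = 0.59) and ERBB2 with BioB (r = -0.51, rho = -0.46). The difference between the ALP groups was 0.84 with the actin difference as a covariate, 0.16 with the GAPDH difference as a covariate, and 0.09 without increased ALP replicates 3 and 6. Its sign therefore depended on these choices, and no value passed the test.

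PDGFRB, the receptor of pericytes and fibroblasts, was lowest at 7.86, with a median of 8.22 and a highest of 9.14, with increased ALP, and lowest at 6.93, with a median of 8.71 and a highest of 9.52, with normal ALP. The lowest of all was normal ALP replicate 2, the tumour with high KIT, and the highest were normal ALP replicates 6 and 3. The difference was -0.09 ± 0.30 (SE; limma 95% interval -0.72 to 0.54, adjusted p = 0.975). The second probe set, CfaAffx.27894.1.S1_s_at, differed by -0.09 ± 0.12 (SE) and followed the first across tumours with r = 0.85 and rho = 0.92.

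AXL, the receptor of GAS6 and protein S, was the most even of the genes at its highest probe set, with levels between 6.45 and 6.80 with increased ALP and between 6.40 and 6.68 with normal ALP. Its standard deviation lay at the 0.986th percentile of all probe sets tested. The difference was 0.04 ± 0.06 (SE; limma 95% interval -0.08 to 0.17, adjusted p = 0.925). The dim AXL probe set, CfaAffx.8493.1.S1_s_at, had levels of 5.99 ± 0.19 with increased ALP and 6.19 ± 0.31 with normal ALP (SD, n = 9 each), for a difference of -0.20 ± 0.12 (SE) and adjusted p = 0.809. The AXL probe sets went opposite ways across tumours, with r = -0.45 and rho = -0.36.

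The same count was made around the other genes, each in its own highest tumour and within 10 places, again after the values were seen. It was 4 of 18 for AXL in increased ALP replicate 6, against 16.4% of all named genes, 4 of 18 for PDGFRB in normal ALP replicate 6, against 4.71%, and 3 of 18 for FGFR2 in increased ALP replicate 7, against 5.44%. ERBB2 had 2 of 18 in increased ALP replicate 8, against 5.13%. PDGFRA had 0 of 16 in increased ALP replicate 4, against 5.19%, and HGF had 0 of 15 in normal ALP replicate 3, against 4.98%, so high neighbours did not accompany the highest tumour of every gene.

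**Figure D3:**
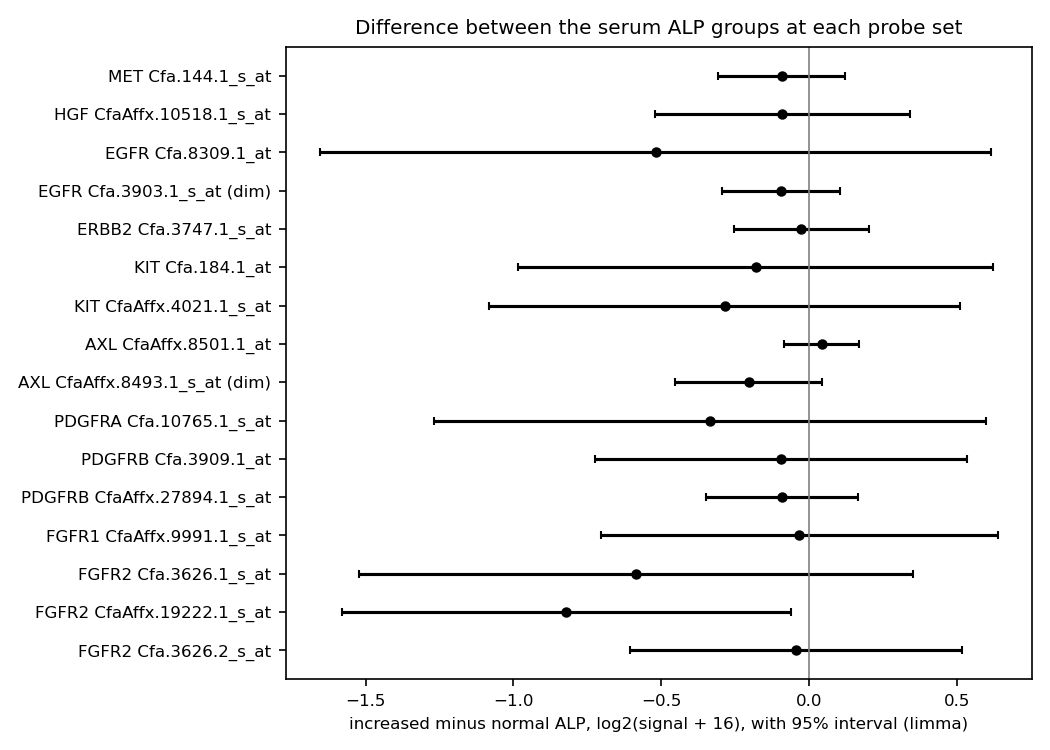
Difference in level between increased and normal ALP for all 16 probe sets, in units of log2(signal + 16), with points for the limma estimate and bars for the 95% interval, positive values being higher with increased ALP. The interval of every probe set but CfaAffx.19222.1.S1_s_at of FGFR2, at -0.82, holds 0.

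HGF moved with EGFR and against FGFR1 across the tumours, as read from its only probe set, whose lowest tumours were near the dim limit. Of the 45 pairs of the 10 genes, 2 had adjusted p-values under 0.05 for both Pearson's r and Spearman's rho over the 18 tumours (100000 permutations, two-sided). HGF and EGFR had r = 0.75 and rho = 0.76, with permutation p-values of 0.00016 and 0.00037 and adjusted values of 0.0072 and 0.0083. Within the groups r was 0.75 with increased ALP and 0.76 with normal ALP, and it was 0.77 without the 2 tumours farthest from the median of HGF. The pair passed in all 18 runs that left out 1 array. HGF and FGFR1 had r = -0.74 and rho = -0.77, with permutation p-values of 0.00069 and 0.00031 and adjusted values of 0.0155 and 0.0083. Within the groups r was -0.85 with increased ALP and -0.67 with normal ALP, and it was -0.66 without the 2 farthest tumours. The pair passed in 17 of the 18 runs, and without normal ALP replicate 3 the adjusted p of r was 0.0610. The number of pairs that passed was 1 without that tumour, 5 without increased ALP replicate 6, and 4 without increased ALP replicate 7 or normal ALP replicate 7.

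HGF and its receptor MET were less tightly related. Over the 18 tumours r was 0.59 and rho 0.62, with permutation p-values of 0.00873 and 0.0070 and adjusted values of 0.0655 and 0.0630 over the 45 pairs, so the pair did not pass. Within the groups r was 0.20 with increased ALP and 0.76 with normal ALP, and over all tumours it was 0.44 without normal ALP replicates 3 and 7. Without increased ALP replicate 7 the pair passed, with rho = 0.74 and an adjusted p of 0.0175. The correlations of 2 pairs differed most between the groups by p. EGFR and PDGFRB had r = 0.89 with increased ALP and 0.01 with normal ALP, with an exact permutation p of 0.00724, and 0.326 after adjustment over the 45 pairs. MET and EGFR had r = -0.07 with increased ALP and 0.88 with normal ALP, with an exact permutation p of 0.0158, and 0.355 after adjustment. Neither difference passed.

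**Figure D4:**
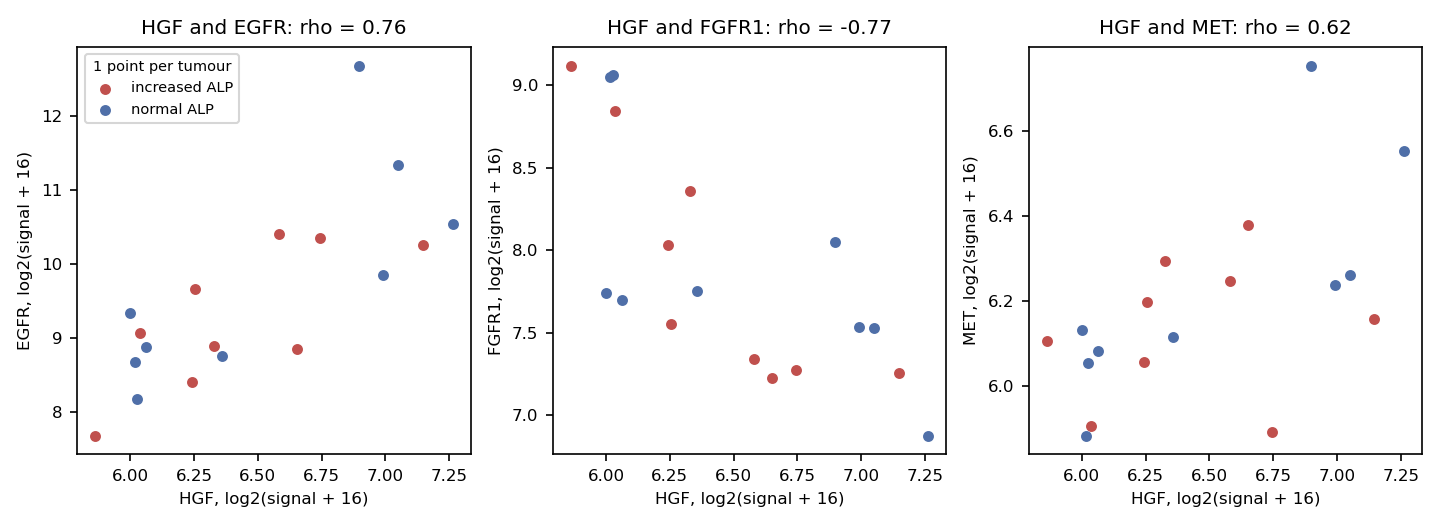
Level of EGFR, FGFR1 and MET against the level of HGF in each tumour, both axes in log2(signal + 16), with increased ALP and normal ALP in separate colours. EGFR goes up with HGF (rho = 0.76), FGFR1 goes down (rho = -0.77), and MET has rho = 0.62.

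The tumours with more HGF had higher stromal and mast cell scores and a lower osteoblast score. That score is a mean, and its markers did not all go the same way. In normal ALP replicate 3, the highest in HGF, IBSP was at 4.85 but COL1A1 at 14.67. In increased ALP replicate 8, the lowest in HGF, IBSP was at 14.21 and COL1A1 at 14.33. Relations of HGF with single markers were not tested. In bulk tumour RNA, fewer cells of a type and less RNA per cell cannot be told apart. Of 100 relations between the 10 genes and 10 marker scores, 11 passed for both r and rho. Leaving out normal ALP replicate 1 gave 7, leaving out replicate 3 of that group gave 6, and leaving out its replicate 7 gave 17. The share of all genes that would pass the same tests was not computed, for these relations or for the gene pairs. The counts therefore do not tell whether these 10 genes differ from other genes. HGF correlated with the fibroblast and interstitial matrix score (rho = 0.78, r = 0.84), the mast cell score (rho = 0.77), the smooth muscle and pericyte score (rho = 0.76) and the osteoblast score (rho = -0.77), each with adjusted p-values of at most 0.0117 and each passing in all 18 runs without 1 array. Its relation with the endothelial score (rho = 0.70) passed in 9 of these runs, and not without increased ALP replicates 2, 7, 8 or 9 or normal ALP replicates 1, 2, 3, 6 or 8, where the adjusted p of r reached 0.140.

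EGFR shared the relations of HGF with the fibroblast score (rho = 0.70, adjusted p = 0.0177) and the mast cell score (rho = 0.68, adjusted p = 0.0217). The relation with the mast cell score passed in 15 of 18 runs, and without normal ALP replicates 1, 4 and 8 in turn the adjusted p of rho was 0.0637, 0.0529 and 0.0512. FGFR1 went the other way. It rose with the osteoblast score (rho = 0.70, adjusted p = 0.0177) in 16 of 18 runs (not without increased ALP replicate 8 or normal ALP replicate 3, with adjusted p of r at 0.0656 and 0.0738) and fell with the smooth muscle and pericyte score (rho = -0.73, adjusted p = 0.0117) in 14 of 18 (not without increased ALP replicates 2, 7 or 8 or normal ALP replicate 3, with adjusted p of r from 0.0531 to 0.120). Its relation with the cell division score (rho = 0.73) passed in 5 of 18 runs, those without increased ALP replicates 5 or 6 or normal ALP replicates 2, 4 or 7, and the adjusted p of r reached 0.157 in the others. That of MET with the cartilage score (rho = 0.63, adjusted p at the threshold) passed in 9, and not without increased ALP replicates 3, 5, 6 or 9 or normal ALP replicates 1, 3, 4, 5 or 7, where the adjusted p of rho reached 0.121. KIT had no relation with the mast cell score that passed, with r = -0.09, rho = 0.20 and an adjusted p of 0.631.

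No gene of the marker lists passed the test between the ALP groups. The 11 fibroblast markers, all measured, had mean levels between 10.47 and 12.39 with increased ALP and between 10.71 and 12.18 with normal ALP. The 6 smooth muscle and pericyte markers measured of 8 lay between 8.64 and 11.17 with increased ALP and between 8.18 and 12.00 with normal ALP. The 5 cartilage markers measured of 7 lay between 6.57 and 10.02 with increased ALP and between 7.50 and 10.09 with normal ALP, and the 8 endothelial markers, all measured, lay between 7.94 and 9.66 with increased ALP and between 7.51 and 9.82 with normal ALP. Of the fibroblast, endothelial and macrophage markers none was dim, while 2 smooth muscle, 2 mast cell and 1 cartilage marker were. The part of these cells in the levels of the receptors was not tested.

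**Figure D5:**
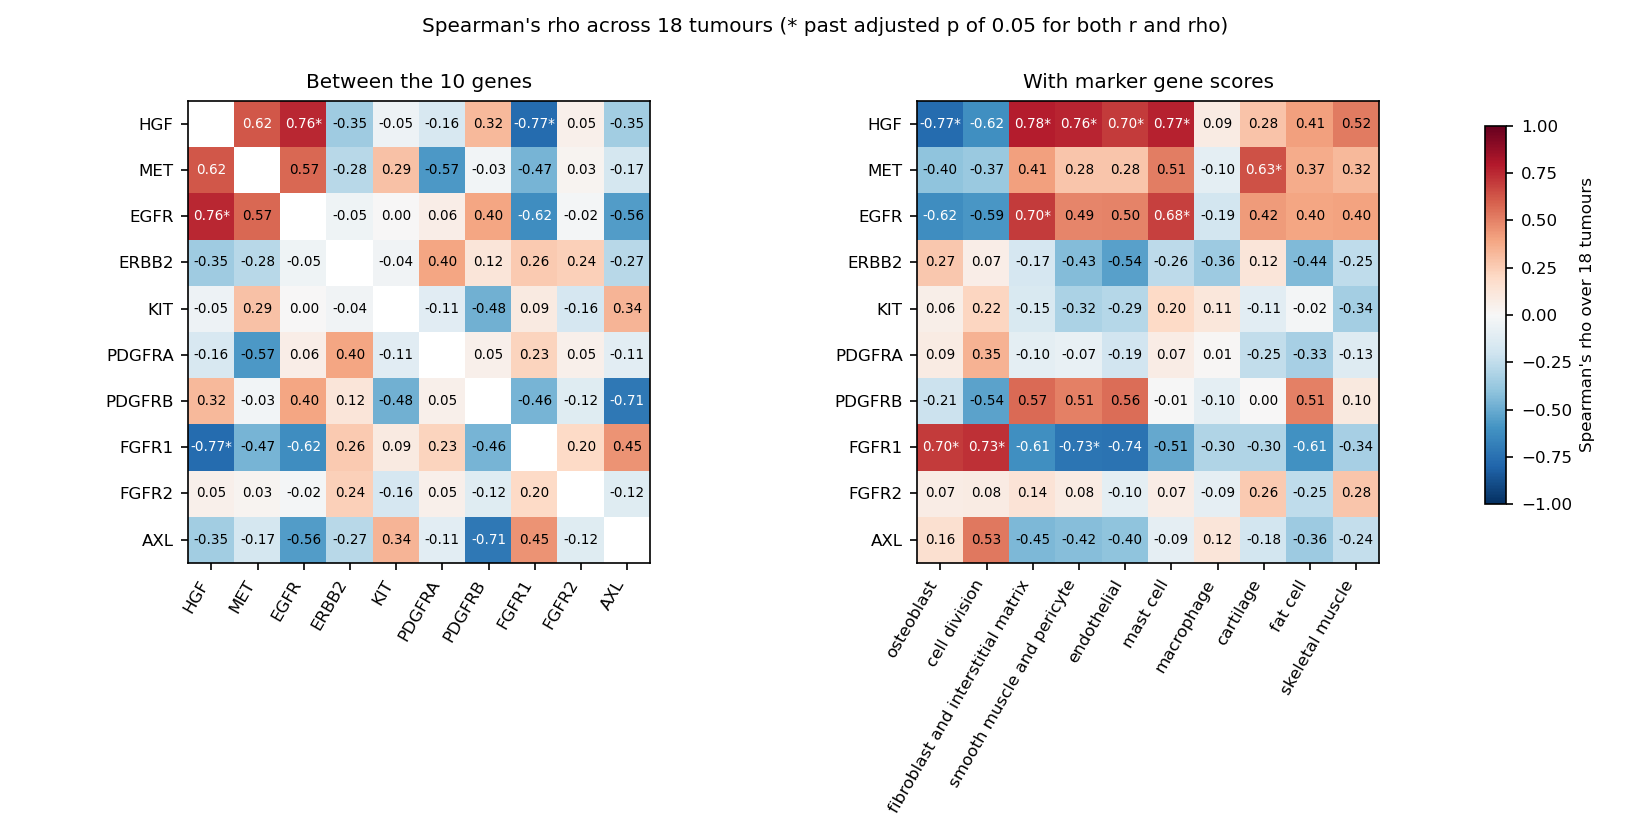
Spearman's rho over 18 tumours of the 10 genes with each other and with 10 cell marker scores, on a colour scale from -1 to 1, with a star where r and rho passed. HGF is positive with EGFR (0.76) and with the fibroblast (0.78) and mast cell (0.77) scores and negative with FGFR1 (-0.77) and the osteoblast score (-0.77).

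No receptor followed its own ligand in a relation that passed. Of 17 ligand and receptor pairs, 11 had a measured ligand, and 0 passed after adjustment over the 11. Without increased ALP replicate 7, 1 passed, namely HGF with MET. HGF with MET came closest, with adjusted p-values of 0.0989 for r and 0.0766 for rho in this family. PDGFC with PDGFRA had r = 0.50 and rho = 0.42, with an adjusted p of 0.183 for r, and KITLG, the ligand of KIT, had r = -0.38 and rho = -0.23 with it. GAS6 with AXL had rho = -0.38, PROS1 with AXL -0.20, PDGFA with PDGFRA 0.14, PDGFB with PDGFRB 0.22, PDGFD with PDGFRB -0.04, FGF1 with FGFR1 0.43, FGF7 with FGFR2 0.37 and TGFA with EGFR -0.09. EGF, HBEGF, AREG, FGF2, FGF9 and FGF10 were dim.

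Genes around the receptors in the pathway were not detectably different between the ALP groups either, with 0 of 61 measured genes called. Of 20 ligands listed, 12 were measured, 8 higher and 4 lower with increased ALP, with a median difference of 0.12. Of 27 other receptor tyrosine kinases, 19 were measured, 13 higher and 6 lower, with a median of 0.16. Of 20 adaptors and signal relays, 14 were measured, 9 higher and 5 lower, with a median of 0.04, and of 17 feedback and target genes, 12 were measured, 5 higher and 7 lower, with a median of -0.03. FGF1, a fibroblast growth factor that binds all its receptors, had a level of 6.88 ± 0.81 with increased ALP and 6.21 ± 0.34 with normal ALP (SD, n = 9 each), which is 0.67 ± 0.27 (SE) higher, with limma giving adjusted p = 0.737. ROR1, a receptor of WNT5A, had 6.20 ± 0.82 with increased ALP and 7.08 ± 0.95 with normal ALP (SD, n = 9 each), for a difference of -0.89 ± 0.39 (SE) and adjusted p = 0.775. These were the 2 of 61 with an unadjusted p under 0.05, a threshold that 6.14% of all probe sets tested were under, so the count was no higher than the background.

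The genes whose levels followed the receptors most closely are given as a description over the 18 tumours, by rank correlation among 10716 other genes. HGF was followed by THBS2, a matrix protein of fibroblasts (rho = 0.91), GRK5 (0.91) and SHISA5 (0.91), and 83 genes had a rho over 0.8 with it. FGFR1 was followed by UNC5B (0.92), ROBO2 (0.88) and WIF1 (0.88), where UNC5B and ROBO2 are receptors of guidance cues and WIF1 is a secreted inhibitor of WNT proteins. EGFR was followed by SGIP1 (0.88), OSBPL6 (0.87) and ZNF521 (0.87), a zinc finger protein known in bone and blood cells. PDGFRB was closest to PPP2R5B (0.87), ASTE1 (0.86) and RASL12 (0.83), and PDGFRA to the RNA-binding protein QKI (0.86), BICC1 (0.81) and ANAPC7 (0.81). MET was closest to ABAT (0.82), FRZB (0.80), a WNT antagonist first found in cartilage, and SGSH (0.80), and ERBB2 to KDM4A (0.84), MIA3 (0.79) and PATZ1 (0.79). AXL was closest to PLRG1 (0.79), SLC6A3 (0.78) and SLC14A2 (0.75), FGFR2 to LENG8 (0.79), TMEM94 (0.69) and SH3BP2 (0.69), and KIT to LOC607191 (0.73), SLC22A6 (0.71) and LOC609137 (0.68), with no gene over 0.8 for these 3.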

How the data were processed

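TRIzol was used to extract RNA from the frozen tissue, and 10 µg of total RNA went into labelling with biotin, per the labels' protocols. The deposited values are log2 signals, 1 column per tumour, for 43035 probe sets, of which 111 are controls. The submitters' processing notes name MAS5, with no version or step, and the normalization behind the deposited log2 values is not given in the sources used here. No detection calls were used. Gene symbols came from the platform annotation, which gave 1 symbol to 29254 probe sets, several to 439 and none to 13231. Neighbours were read from the gene order of the RefSeq table of the assembly UU_Cfam_GSD_1.0, in which 27680 gene identifiers were found, and no coordinates are given. The annotated identifier of FGFR1 was not in that table, and it was matched by symbol.

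Values were raised to the linear scale, an offset of 16 was included, and log2 was computed again. Probe sets under the 40th percentile of mean level (6.15) were left out, leaving 25754. The ALP groups were compared with a linear model and moderated statistics (limma 3.58.1, R 4.3.3, mean-variance trend in eBayes), two-sided, at an adjusted p of 0.05 (Benjamini-Hochberg over all probe sets). A gene of a list was taken by its probe set of highest mean. Marker scores are the mean deviation of a list's genes from the mean of all tumours, and lists with under 3 measured genes were left out. The correlations used 100000 permutations, and a relation passed only where r and rho both did. Single tumours were screened with Dixon's test per group of 9, at a critical value of 0.493. The rule for named genes was all members, 3 genes most like each, ligands of the receptor pairs, list genes with an unadjusted p under 0.05 (at most 4 a list), and pairs past the threshold (at most 10). The members and lists were chosen with earlier results of these data known. The neighbour counts, the spread of FGFR2 and the group difference of correlations were added after the values were seen.

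The scripts were tested on simulated data. No array was a duplicate: 2 arrays correlated at most with r = 0.981, and shared the same value at no more than 0.100% of probe sets. P-values test differences and correlations against the variation between tumours. Each tumour was taken as its own dog, although the sample titles number the tissues and not the dogs. Correlations and plots were made in Python 3.11.15 (SciPy 1.17.1, NumPy 2.4.6, matplotlib 3.10.9, pandas 2.3.3).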

Additional observations from a re-analysis of the deposited data

Results flagged for a closer look

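KIT in normal ALP replicate 2 lay far from the other normal ALP tumours at each of its probe sets, with a gap to the next tumour of 0.814 and 0.829 of the group's whole range. Among all probe sets tested, 6.48% had such a high tumour in the normal ALP group and 3.48% such a low one. Chance flags about 1 in 20 groups with both sides counted together.

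Among the ligands, FGF1 had a far tumour in increased ALP replicate 9, with a gap of 0.512 of the range, and PDGFD in increased ALP replicate 8, with a gap of 0.567. PDGFC had a far tumour in normal ALP replicate 8, with a gap of 0.527, and a signal 2.21-fold the next. PROS1, protein S, was far below the others in normal ALP replicate 2, with a gap of 0.557, at a level of 5.68, against 7.99 for the next lowest tumour of its group.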

How the results depend on the processing

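The counts of 0 in limma held under each planned setting and under the 2 added after seeing the data (no offset, and without increased ALP replicates 3 and 6). Of 216 values of the 16 probe sets under other settings, 197 kept their sign, 19 changed it, and the lowest adjusted p was 0.663. The sign changed for ERBB2 to 0.0094 with scaling to the 75th percentile, 0.10 with the actin difference, 0.0077 with the GAPDH difference and 0.044 without increased ALP replicates 3 and 6. It changed for KIT to 0.033 with array weights and to 0.090 with the GAPDH difference (0.014 at the _s_at probe set), and for AXL to -0.030 with the actin difference and -0.0076 without replicates 3 and 6. PDGFRA changed to 0.84 with the actin difference, 0.16 with the GAPDH difference and 0.092 without replicates 3 and 6. PDGFRB changed to 0.31 with the actin difference (0.061 at the _s_at probe set) and 0.021 without replicates 3 and 6. FGFR1 changed to 0.0011 with quantile normalization, 0.0082 with 75th percentile scaling, 0.19 with the actin difference and 0.10 with the GAPDH difference. The cause was not tested.

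Leaving out each array gave differences between -0.18 and 0.0024 for HGF, -0.075 and 0.025 for ERBB2, -0.28 and 0.20 for KIT (-0.38 and 0.10 at the _s_at probe set), -0.29 and 0.033 for PDGFRB, -0.19 and 0.11 for FGFR1, and -0.15 and 0.12 for the FGFR2 probe set Cfa.3626.2.A1_s_at. The sign held but the size moved by over 1.5 times for PDGFRA (-0.55 to -0.12), MET (-0.14 to -0.028), EGFR (-0.72 to -0.16), FGFR2 (-0.76 to -0.26) and AXL (0.018 to 0.061) at their brightest probe sets, and none of these values was called. The count of correlated pairs lay between 1 and 5, that of marker relations between 6 and 17, and that of ligand pairs between 0 and 1. Spearman's rank correlation of HGF with MET lay between 0.56 and 0.74, and passed without increased ALP replicate 7. Without increased ALP replicates 3 and 6, 5 pairs passed. With the tissue number as a replicate block, 0 probe sets were called, and the lowest adjusted p was 0.0684. Samples with the same number were not treated as paired in the main comparison. Their correlations lay between -0.164 and 0.270, and 0 of 9 increased ALP arrays correlated best with its own number. These values cannot show what the numbers stand for, since what paired samples would give is not known. The number of arrays limits the precision.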
